A study of Homo sapiens with 8 samples.

Results

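The comparison described here is that of NCI-H647 cells after a pulse of an MPS1 inhibitor with NCI-H647 cells given the vehicle. It takes in the 4 NCI-H647 libraries of the 8 in the study: 2 from cells treated with the inhibitor and 2 from cells treated with DMSO. NCI-H647 is an established human non-small cell lung cancer line, with a genotype given as WT. The inhibitor, BAY-1217389, was used at 100 nM for 48 h, then removed, and RNA was taken after a further 24 h without drug; the DMSO cells followed the same schedule. All cells grew in RPMI medium with serum, penicillin-streptomycin and plasmocin. The libraries were stranded and depleted of ribosomal RNA, and converted for a DNBSEQ instrument. The other 4 libraries are from the lung cancer line NCI-H1944 under the same treatment, but were made with a stranded mRNA kit. The labels do not say whether replicates were separate cultures, so p-values measure the spread between these libraries, which may be technical.

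MPS1, encoded by TTK, is a kinase of the spindle assembly checkpoint, which holds cells in mitosis until every chromosome is attached to the spindle. Cells that divide without it missegregate chromosomes, and lagging chromosomes can form micronuclei. Such cells are known for stopping their cell cycle, for turning on interferon-stimulated genes through sensors of misplaced nucleic acid, and for secreting inflammatory cytokines, chemokines and proteases, a secretory pattern also known from senescent cells.

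Each library held 13358514 to 19550859 counts over 61271 listed genes, and both inhibitor libraries were shallower than both DMSO libraries (13563037 and 13358514 against 19550859 and 17243487). Of the listed genes, 15049 had enough counts to be tested. In edgeR's quasi-likelihood test with Benjamini-Hochberg adjustment, 4114 genes were higher after the inhibitor (27.3% of those tested) and 4070 were lower (27.0%) at an adjusted p under 0.05. These make up 54.4% of the genes tested, so a gene list is read against these shares. Against a minimum change of 1.5-fold the counts were 792 higher and 464 lower, which moves the share of higher calls from 50.3% to 63.1%. DESeq2 called 2131 higher and 2581 lower. At least 2-fold changes were called for 843 higher and 329 lower genes. The libraries of the 2 groups did not overlap in CPM (counts scaled to a common library size with TMM factors) for 76.3% of genes tested. Replicates correlated at 0.993 (DMSO) and 0.991 (inhibitor) in log2 CPM, across genes.

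**Figure D1:**
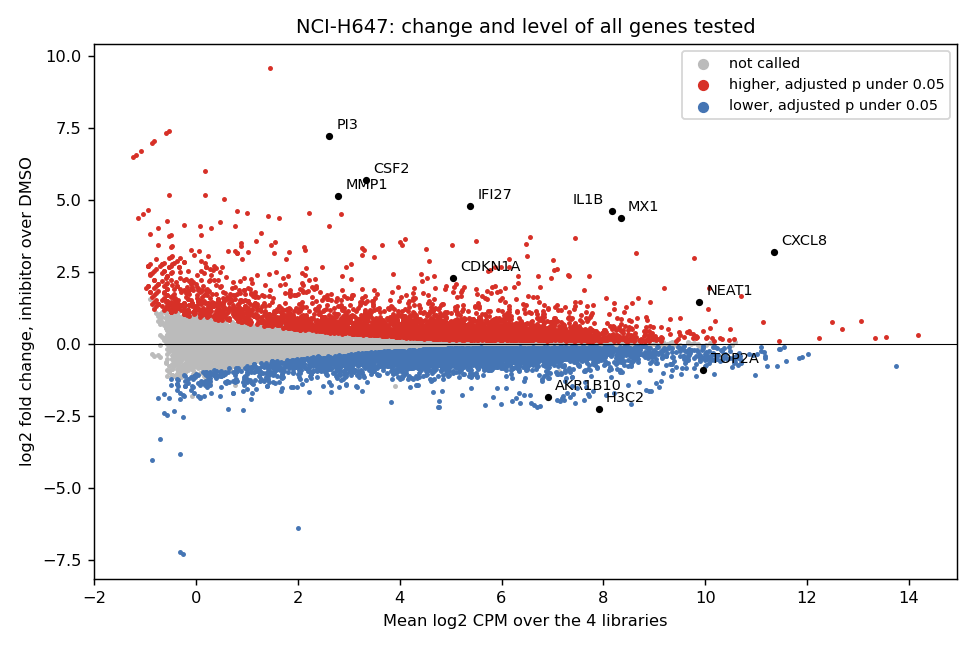
Log2 fold change (inhibitor over DMSO, vertical) against mean log2 CPM over the 4 libraries (horizontal) for the 15049 genes tested, with genes higher in red, lower in blue and not called in grey at an adjusted p of 0.05. Rises reach farther than falls, with 843 genes at least 2-fold higher and 329 at least 2-fold lower; the most extreme points, near the left edge, are genes with a group at 0, whose fitted value depends on the prior count.

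The line was checked against markers of cell types. Of 11 epithelial lung line markers, 7 had enough counts to be tested. KRT7 held 7210 and 6365 counts with DMSO and 3307 and 3031 after the inhibitor, and KRT8 and KRT18, the keratins of simple epithelium, ranged from 2457 to 5064 counts. EPCAM was low, at 60 to 94 counts, and CDH1, which encodes E-cadherin, was near 0, at 3 to 9 counts. KRT5 was at 0 and SFTPB had at most 1 count. The cells thus carried simple-epithelial keratins, with vimentin (VIM) at 26452 to 51335 counts. Of 9 leukocyte and erythroid markers, 2 were tested: CD68, which many cell types express, and CD14, which rose from 11 and 12 counts to 30 and 31. The pan-leukocyte marker PTPRC had 8 and 4 counts with DMSO and 2 and 1 after the inhibitor, and HBB was at 0.

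Genes of secreted inflammatory factors are described first. IL1B, which encodes the cytokine interleukin-1 beta (chr2:112829751-112836816, GRCh38), stood at 23.8 and 22.8 CPM with DMSO and at 558 and 575 CPM after the inhibitor. The groups were far apart and the replicates close, with a log2 change of 4.60 ± 0.05 (standard error, SE; adjusted p = 2.064e-18, edgeR). Its neighbour IL1A (chr2:112773925-112784493), which encodes interleukin-1 alpha, went from 36.4 and 34.6 to 177 and 187 CPM. That is a log2 change of 2.36 ± 0.05. Of 18 genes of the interleukin-1 family, its receptors and adaptors, 11 were tested, 8 were higher and 2 lower, with a median log2 change of 0.25 against 0.01 over all genes tested. The number higher was 4 in DESeq2 and 3 against a 1.5-fold minimum, and the median was 0.88 without the filter on low counts. Besides both ligands, the kinase gene IRAK2 rose by 1.25, while IL18, a further cytokine of the family, fell by 0.35. The receptor gene IL1R1 rose by 0.22, and the receptor antagonist IL1RN was too low to test (0 and 0, then 2 and 2 counts).

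CSF2, which encodes the growth factor GM-CSF (chr5:132073789-132076170), had 12 and 3 counts with DMSO and 289 and 311 after the inhibitor. In CPM these are 0.626 and 0.177 against 21.0 and 22.9, a log2 change of 5.70 ± 0.23 (adjusted p = 1.976e-11). The gene was close to undetected before and plainly expressed after. CSF3, which encodes G-CSF, went from 14.2 and 16.5 to 173 and 169 CPM (log2 3.48 ± 0.07). IL6, the acute-phase cytokine (chr7:22725884-22732002), went from 50.2 and 52.9 to 265 and 279 CPM, a log2 change of 2.40 ± 0.05. Among the 19 tested colony-stimulating factor, interleukin and receptor genes, 13 were higher and 1 was lower, with a median of 0.87. In a joint fit with the NCI-H1944 libraries, where 15 of these genes could be tested, 9 were higher and the median was 0.22. The lower one was the receptor LIFR (fell by 0.36), and the higher ones included LIF (1.62), IL24 (4.38), IL32 (1.61), TSLP (1.77) and IL11 (0.87). IL23A, a subunit of interleukin-23, had 3 and 0 counts with DMSO and 42 and 40 after the inhibitor, a ratio of 36.1 with a 95% counting interval of 11.9 to 179. Counting intervals and floors cover counting error only.

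CXCL8, which encodes the neutrophil attractant interleukin-8 (chr4:73740519-73743716), held 9992 and 8750 counts with DMSO and 63316 and 65145 after the inhibitor. Its level went from 521 and 516 to 4595 and 4807 CPM, with no overlap and a log2 change of 3.18 ± 0.03 (adjusted p = 2.064e-18). Of 23 chemokine genes, 15 were tested, 12 were higher and none was lower at an adjusted p under 0.05 in edgeR, with a median of 1.65. CCL20, which attracts dendritic cells and lymphocytes through CCR6, rose from 84.7 and 80 to 741 and 719 CPM (3.15 ± 0.04). CCL5, which attracts T cells and monocytes, rose from 2.35 and 1.65 to 19 and 19.8 CPM (3.26 ± 0.15). CXCL10, a ligand of CXCR3, had 1 and 2 counts, then 24 and 19, a ratio of 18.9 (95% counting interval 6.06 to 95.5). The 3 tested chemokines not called were CCL2 (0.09), CXCL12 (-0.18) and CCL28 (-0.55).

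Within the CXCL cluster on chromosome 4, between the start of CXCL8 at 73740519 and the end of CXCL2 at 74099196, the genes CXCL8, CXCL6, CXCL1, CXCL5, CXCL3 and CXCL2 all rose, by unequal amounts. The log2 changes were 3.18, 0.95, 1.65, 0.79, 1.58 and 1.86 in that order along the chromosome. CXCL5, another neutrophil attractant, started at 6102 and 6417 CPM and had the smallest log2 change of the 6. CXCL8 had the largest.

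The promoters of CXCL8 and IL6 are shown because genes with a kappaB-like motif, the kind of site that NF-kB binds, recur among the chemokines. Each run is the 250 bases before the RefSeq start site, 5′ to 3′ on the gene's strand (GRCh38.p14), and RefSeq start sites can differ from the gene starts in the deposited table. CXCL8 is chr4:73740319-73740568 (plus strand) and IL6 is chr7:22726950-22727199 (plus strand). Capitals here, and in the promoters that follow, mark matches on either strand to any of 5 motifs. The kappaB-like motif was GGANTTTCC, where N is any base. The AP-1 motif was TGANTCA. The ISRE (interferon-stimulated response element) was searched as GAAA repeated after 2 unspecified bases. The CHR (cell cycle genes homology region), a site that represses cell cycle genes outside division, was TTTGAA. The CCAAT box, common in proximal promoters, was CCAAT.
CXCL8: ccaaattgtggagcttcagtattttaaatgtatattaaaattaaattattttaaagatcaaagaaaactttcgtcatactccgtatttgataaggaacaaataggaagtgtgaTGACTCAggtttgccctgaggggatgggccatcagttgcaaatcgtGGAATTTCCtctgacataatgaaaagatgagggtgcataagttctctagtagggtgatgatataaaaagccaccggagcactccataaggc
IL6: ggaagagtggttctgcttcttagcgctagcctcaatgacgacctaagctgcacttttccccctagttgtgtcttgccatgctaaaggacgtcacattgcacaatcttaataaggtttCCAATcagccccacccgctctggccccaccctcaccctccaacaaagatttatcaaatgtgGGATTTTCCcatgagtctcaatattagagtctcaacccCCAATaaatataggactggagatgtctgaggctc
In CXCL8, the AP-1 match TGACTCA begins 137 bases and the kappaB-like match GGAATTTCC 91 bases before the start site. In IL6, GGATTTTCC begins 72 bases before it. Among the 12 tested chemokine genes with a promoter in the table, 8 held the kappaB-like motif (66.7%), against 1.47% of all 27305 promoters in the table and 1.51% of the 10443 promoters of tested protein-coding genes. Among coding genes called at least 2-fold higher with a promoter in the table, 5.87% of 477 held it, and 1.06% of the 188 at least 2-fold lower. The higher set overlaps the chemokine list, of which 10 of 15 tested genes were at least 2-fold higher. The AP-1 motif stood in 8.81% of the promoters at least 2-fold higher and 2.13% of those at least 2-fold lower. It stood in 3.84% of those of tested protein-coding genes and 6.6% of all promoters. A match is a description of the letters, not of binding.

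Genes of the NF-kB pathway itself rose by smaller amounts. Of 26 tested subunits, inhibitors and effectors, 22 were higher and 2 lower, with a median of 0.72. Among effectors, SOD2, the mitochondrial superoxide dismutase, went from 438 and 450 to 1743 and 1686 CPM (1.95 ± 0.03), and BIRC3, an inhibitor of apoptosis, rose by 1.43. Feedback inhibitors rose as well: TNFAIP3 by 1.15, NFKBIA by 0.86 and the endoribonuclease gene ZC3H12A by 1.26. Subunits moved less, with NFKB2 at 0.89, RELB at 0.75, RELA at 0.69 and NFKB1 at 0.34, while REL at 0.07 was not called. The 2 lower genes were BCL3 and MAP3K14, at -0.37 and -0.25. The kappaB-like motif stood in 6 of the 23 promoters of this list found in the table (26.1%).

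Immediate-early transcription factors, which answer growth factor, stress and cytokine signals within minutes to hours, were higher 24 h after the drug was removed. Of 18 tested, 17 were higher and none lower in edgeR, with a median of 1.47, and the remaining one, BATF, was at 0.80 and not called. FOSB went from 1.88 and 2.54 to 18.6 and 19 CPM (3.10 ± 0.15), and EGR1 from 19.8 and 20 to 70.8 and 77.0 CPM (1.89 ± 0.06). ATF3 rose by 2.66, JUNB by 1.54, FOS by 1.60 and IER3 by 1.42. Genes that MAPK signalling induces and that feed back on it were called higher for 11 of 17, with DUSP5 at 1.62, SPRY4 at 1.38 and DUSP6 at 1.05. Ligands of the EGF receptor family rose too: EREG from 28.1 and 28.2 to 104 and 98.6 CPM (1.85 ± 0.06), HBEGF by 1.77, AREG by 1.75 and TGFA by 1.06. Of the 13 tested genes of that family, 10 were higher and 1, the receptor ERBB2, was lower (fell by 0.27).

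Proteases and their inhibitors rose together. MMP1, interstitial collagenase (chr11:102789401-102798160), had 6 and 9 counts with DMSO and 224 and 184 after the inhibitor, that is 0.313 and 0.531 against 16.3 and 13.6 CPM. The log2 change was 5.14 ± 0.24 (adjusted p = 1.243e-10), from a level close to undetected. Its chromosome 11 neighbours MMP7 (1.97), MMP10 (2.76) and MMP13 (3.17) rose as well. MMP3, stromelysin-1, was at 0 in both DMSO libraries and at 18 counts in both inhibitor libraries, at least 15.9-fold higher taking 3 counts over the DMSO group as the floor. Of 14 tested metalloproteinases and inhibitors, 9 were higher and none lower in edgeR (median 1.02, which MMP3 does not set). The inhibitor TIMP1 rose by 1.27, while MMP2 (-0.07) and TIMP2 (-0.02) were not called.

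The list of plasminogen activators and serpins showed the same direction, with 10 of 13 tested genes higher and none lower in edgeR (median 0.96). The urokinase receptor PLAUR rose by 1.31. SERPINB2, plasminogen activator inhibitor 2, went from 0.313 and 0.531 to 9.29 and 10.4 CPM (4.54 ± 0.26). INHBA, which encodes the activin A subunit, had 134 and 82 counts and then 873 and 878 (3.42 ± 0.09). In the list of activin and TGF-beta genes it belongs to, 13 of 26 tested were higher and 5 lower, and ID1, a target of BMP signalling, fell by 0.77. Of 6 tested IGF binding proteins, 4 were higher, with IGFBP3 at 0.67, and IGFBP4 fell by 0.16.

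Complement and acute-phase genes were called higher for 16 of 20 tested (median 1.23). PI3, the elastase inhibitor elafin, had 3 and 0 counts and then 183 and 190, a ratio of 164 (95% counting interval 55.8 to 801). SAA1, serum amyloid A, went from 5.01 and 4.07 to 44.5 and 45.4 CPM (3.30 ± 0.09), and complement factor B (CFB) from 16.2 and 16.9 to 96.0 and 95.4 CPM (2.53 ± 0.06). C5 was the exception, at 10.8 and 9.97 CPM and then 3.92 and 4.06 (log2 -1.38 ± 0.15). SAA1 and SAA2, and C4A and C4B, are near-identical copies whose reads the counting could split, so their single values are uncertain.

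**Figure D2:**
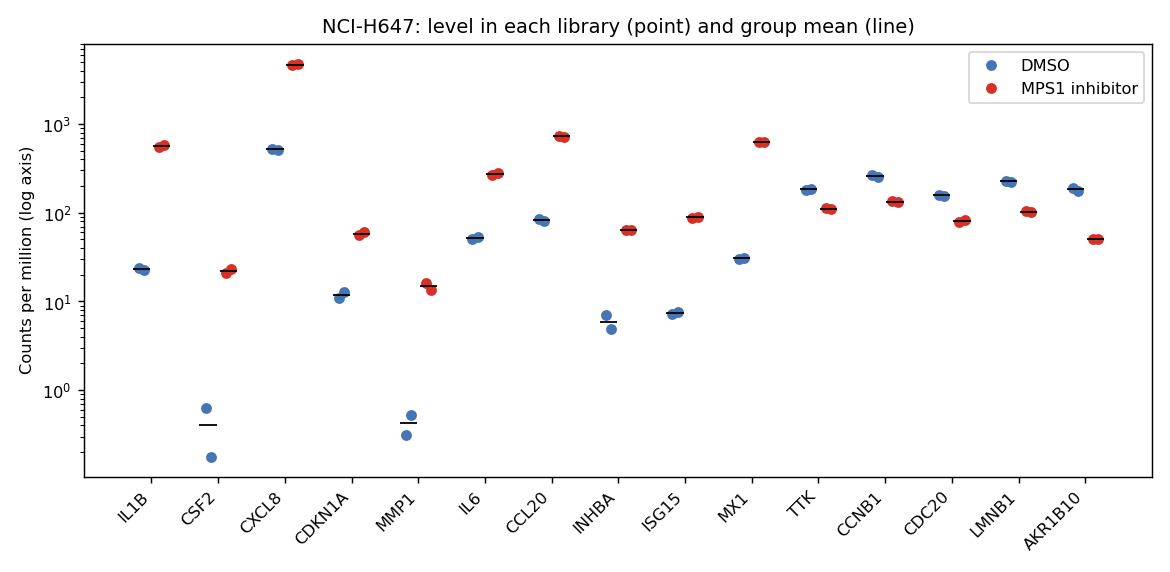
CPM on a log axis for 15 genes in the 2 DMSO (blue) and 2 inhibitor (red) libraries, with each group's mean as a line. No gene shown has overlapping groups: IL1B, CSF2, CXCL8, CDKN1A, MMP1, IL6, CCL20, INHBA, ISG15 and MX1 are higher after the inhibitor, and TTK, CCNB1, CDC20, LMNB1 and AKR1B10 lower. Groups did not overlap for 76.3% of all genes tested.

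Interferon-stimulated genes rose as a group. All 44 tested of 45 listed were higher, with log2 changes from 0.75 to 5.17 and a median of 1.96, and 42 of them at least 2-fold. MX1, an antiviral GTPase (chr21:41420020-41470071), went from 29.9 and 31.3 to 635 and 624 CPM (4.36 ± 0.04; adjusted p = 2.064e-18). IFI27 went from 2.56 and 3.77 to 89.0 and 84.1 CPM (4.79 ± 0.09). ISG15, a ubiquitin-like modifier (chr1:1001138-1014540), went from 7.25 and 7.55 to 87.2 and 90.2 CPM (3.58 ± 0.06). None of these groups overlapped, as for 76.3% of all genes tested. OAS2, which makes the activator of RNase L, rose by 3.71, IFIT1, which binds foreign RNA ends, by 2.66, and the antiviral ubiquitin ligase TRIM22 by 4.51. The transcription factor genes of the pathway were among them: STAT2 by 1.45, IRF9 by 1.33 and IRF7 by 2.43. RTP4, the member not tested, had 1 and 0 counts and then 6 and 10.

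The interferon genes themselves stayed near 0. Of 13, 8 had no count in any library. IFNB1 had 0 and 0 counts and then 1 and 2, IFNL1 0 and 0 and then 1 and 0, both at or under the floor of 3 counts over a group, which is 0.0829 CPM with DMSO and 0.110 CPM after the inhibitor. IFNE, the 1 interferon gene with enough counts to test, had 7 and 5 and then 12 and 11 counts (1.32 ± 0.45, adjusted p = 0.021 in edgeR), a call lost in DESeq2 (adjusted p = 0.36) and without any 1 of the 4 libraries. A difference in these genes was otherwise not detectable at this depth.

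Genes that sense RNA and genes that sense DNA had similar medians, 0.26 and 0.27, and no difference between the lists was tested. Of 18 tested RNA-sensing genes, 10 were higher and 2 lower, with 6 higher against a 1.5-fold minimum. The cytosolic RNA helicases led: IFIH1, which encodes MDA5, went from 30.0 and 31.9 to 132 and 137 CPM (2.12 ± 0.06), and RIGI, listed as DDX58 in the deposited table, from 23.1 and 20.9 to 70.8 and 74.5 CPM (1.72 ± 0.06). EIF2AK2, the kinase PKR, rose by 1.09 and ADAR, an RNA-editing enzyme, by 0.88. The adaptor gene MAVS fell by 0.41. Of 11 tested DNA-sensing genes, 5 were higher and 4 lower; 3 were higher in DESeq2 and 2 against a 1.5-fold minimum, and the median was 0.088 without inhibitor replicate 2. CGAS, the sensor that makes cyclic GMP-AMP, went from 27.5 and 27.8 to 32.7 and 36.7 CPM (0.33 ± 0.07, adjusted p = 0.000734), and its receptor STING1 from 30.6 and 29.0 to 36.2 and 35.9 CPM (0.27 ± 0.06, adjusted p = 0.00114). Both calls were lost in DESeq2 (adjusted p = 0.089 and 0.15). SAMHD1, a nucleotide hydrolase, rose by 1.99, while RNASEH2A and RNASEH2B, subunits of an enzyme that removes RNA from DNA, fell by 0.73 and 0.80.

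The ISG15 promoter is shown as an example of the ISRE, the site through which interferon acts on these genes. It is chr1:1013247-1013496 (plus strand).
ISG15: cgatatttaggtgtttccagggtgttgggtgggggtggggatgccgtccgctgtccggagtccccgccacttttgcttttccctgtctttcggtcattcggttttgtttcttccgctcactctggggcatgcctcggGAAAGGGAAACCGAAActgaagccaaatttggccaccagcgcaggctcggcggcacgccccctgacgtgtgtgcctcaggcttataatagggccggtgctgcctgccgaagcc
The matches GAAAGGGAAA and GAAACCGAAA begin 113 and 107 bases before the start site and share letters. Of 34 tested interferon-stimulated genes with a promoter in the table, 19 held an ISRE match (55.9%), against 3.07% of all promoters and 2.46% of those of tested protein-coding genes. Among coding genes at least 2-fold higher the share was 8.81%, and among those at least 2-fold lower 2.66%. The higher set overlaps the list, since 42 of its 44 tested genes were at least 2-fold higher, so the 2 shares are not separate.

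Antigen presentation and surface ligands for immune cells rose by less. Of 22 tested genes of MHC class I presentation, 17 were higher and none lower in edgeR (median 0.54). HLA-B went from 29.2 and 28.2 to 110 and 109 CPM (1.93 ± 0.05), HLA-C rose by 1.10, B2M by 0.89 and the peptide transporter gene TAP1 by 1.94. HLA genes are alike in sequence, so reads may be shared between them. Of 16 tested surface ligands, 13 were higher and none lower in edgeR (median 0.57). CD274, which encodes PD-L1, went from 16.7 and 16.7 to 43.5 and 42.9 CPM (1.37 ± 0.06). The NKG2D ligands MICA and MICB rose by 0.91 and 0.93, and TNFSF15 by 2.34.

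CDKN1A, the cyclin-dependent kinase inhibitor p21 (chr6:36676460-36687337), had 212 and 215 counts with DMSO and 772 and 818 after the inhibitor. In CPM it went from 11.1 and 12.7 to 56.0 and 60.4, without overlap, a log2 change of 2.30 ± 0.07 (adjusted p = 1.273e-12). MDM2, the ubiquitin ligase that p53 induces and that degrades it, stood at 94.2 and 90.1 CPM and then at 90.4 and 97.0. Its groups overlapped, with a log2 change of 0.02 ± 0.05 (adjusted p = 0.747). Of 29 tested p53 targets, 15 were higher and 5 lower, with a median of 0.31.

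The p53 targets that rose included GDF15, a stress cytokine (2.78), PMAIP1, the BH3-only protein NOXA (1.64), GADD45A (1.12), GADD45B (1.60) and SESN2 (1.29). The ones that fell were CCNG1 (by 0.72), ZMAT3 (by 0.67), DDB2 (by 0.44), BAX (by 0.25) and PLK2 (by 0.11). Without DMSO replicate 2, 2 were called lower, in DESeq2 3, and against a 1.5-fold minimum 9 were higher and 1 lower. In the BCL2 family, 10 of 14 tested genes were higher and 1 lower, with BCL2A1, which protects cells, at 2.42 and the BH3-only gene BMF at 1.38. Death receptor and caspase genes were higher for 9 of 17 tested and lower for 3: CFLAR, which blocks caspase-8, rose by 0.89 and TNFRSF1B by 1.61, while CASP6 fell by 0.58. Of 12 tested inflammasome and pyroptosis genes, 6 were higher and 2 lower, with CASP1, which cleaves the interleukin-1 beta precursor, at 0.43, and the pore-forming gasdermin gene GSDMD at -0.38. Among CDK inhibitors and G1 regulators, 5 of 20 tested were higher and 7 lower, with 3 higher in DESeq2. These shares were 25% and 35%, against 27.3% and 27.0% of all genes tested. The p16 and p15 genes, CDKN2A and CDKN2B, were at 0 in all 4 libraries. CDKN2C, which encodes p18, fell by 0.71, CDK4 by 0.48 and RBL1 by 0.67, while CCND1 rose by 0.47.

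**Figure D3:**
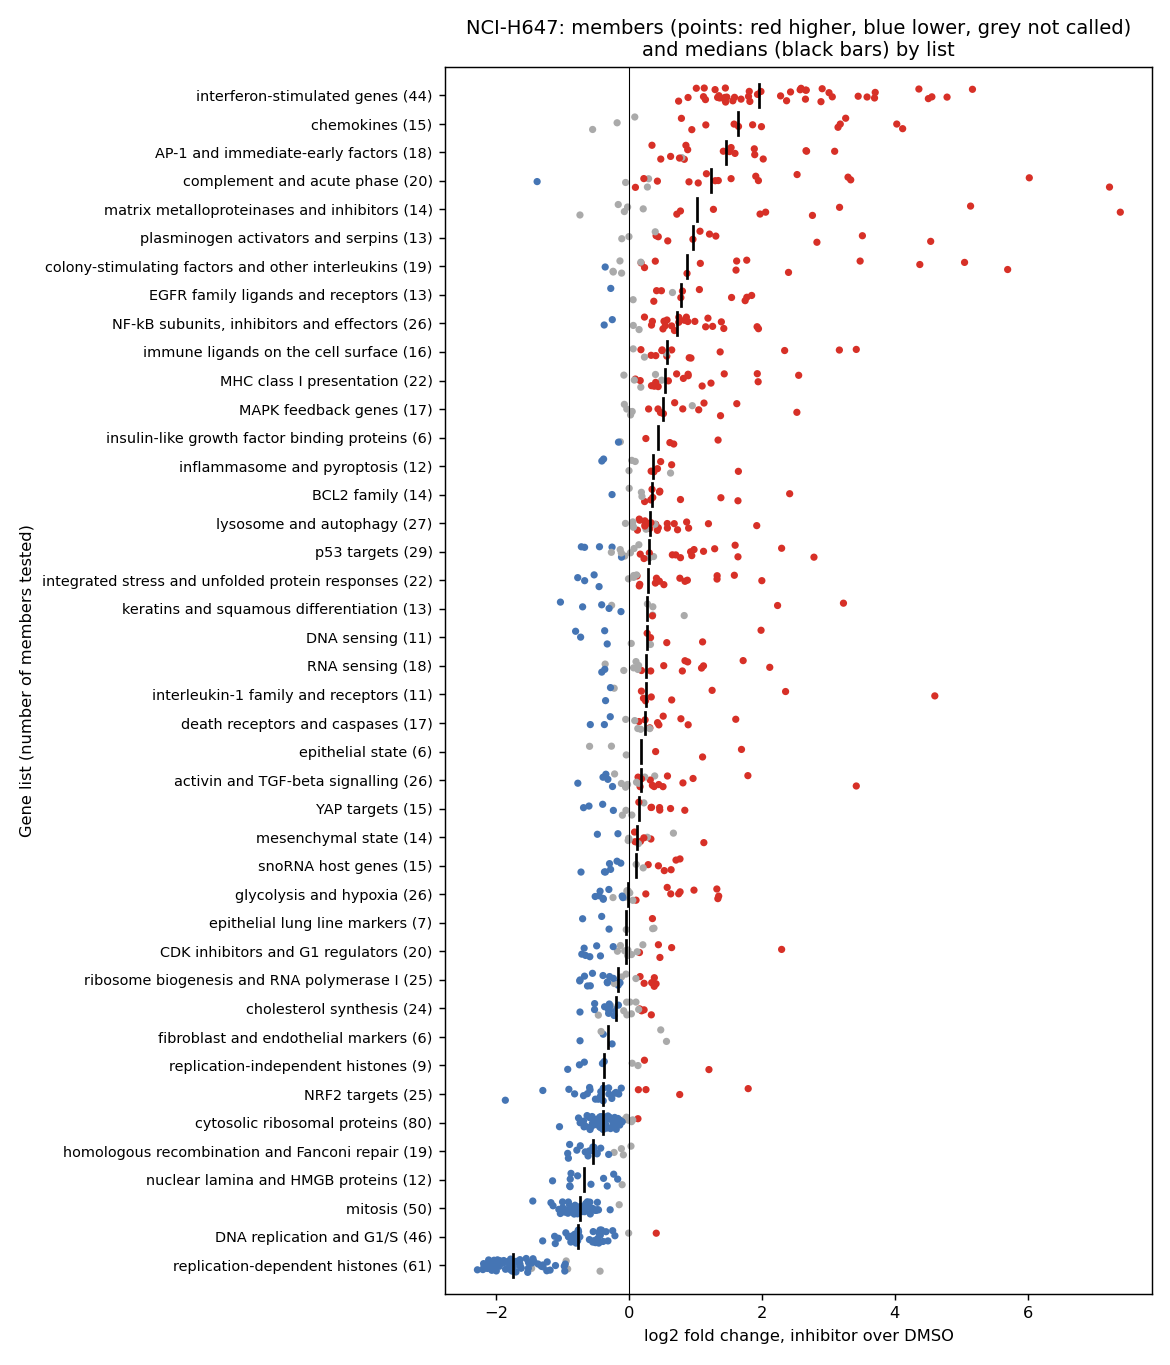
Log2 fold change (inhibitor over DMSO) of each tested member of the lists with at least 5 tested members, other than the ZNF genes, with called members in red (higher) or blue (lower), others in grey, and black bars at the medians. Lists are ordered by median, from the replication-dependent histones (-1.74) to the interferon-stimulated genes (1.96).

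Genes of cell division were lower. TTK, which encodes the kinase the drug targets, stood at 182 and 187 CPM with DMSO and 113 and 111 after the inhibitor (-0.72 ± 0.04, adjusted p = 2.393e-09); the drug blocks the kinase, so the transcript does not check the labels. Of 50 mitosis genes, 49 were lower and none higher in edgeR, with log2 changes from -1.45 to -0.15 and a median of -0.73. CCNB1, cyclin B1, went from 266 and 252 to 136 and 132 CPM (-0.95 ± 0.04), and CDC20, the activator of the anaphase-promoting complex, from 158 and 156 to 78.6 and 82.1 CPM (-0.97 ± 0.05). The groups did not overlap for either, as for 76.3% of all genes tested. KIF20A, a kinesin of cytokinesis, fell by 1.17, SPC24, a kinetochore subunit, by 1.45, TOP2A by 0.91 and the proliferation marker MKI67 by 0.82. In these bulk samples, fewer cells of a kind, such as dividing cells, and less RNA per cell cannot be told apart.

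DNA replication and G1/S genes moved alike, with 44 of 46 lower, 1 higher and a median of -0.76. PRIM1, the primase subunit, fell by 1.30, TYMS by 0.91 and the helicase gene MCM4 by 0.77. The higher gene was RPA2, a subunit of the single-stranded DNA binding complex, at 49.3 and 46.2 CPM and then 62.6 and 64.5 (0.41 ± 0.05). Against a minimum change of 1.5-fold, 23 replication genes and 27 mitosis genes were called lower. Of 19 homologous recombination and Fanconi genes, 15 were lower and none higher in edgeR (median -0.53), with BRCA1 at -0.89 and FANCD2 at -0.92.

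LMNB1, lamin B1, whose loss is a known mark of senescent cells, went from 230 and 224 to 104 and 101 CPM (-1.15 ± 0.04). Of 12 lamina and HMGB genes, 11 were lower and none higher in edgeR, HMGB1 by 0.77 and HMGB2 by 0.88 among them, and LMNA by 0.17. GLB1, the lysosomal beta-galactosidase used to stain senescent cells, was at 23.9 and 23.4 CPM and then 29.8 and 26.3 (0.24 ± 0.07, adjusted p = 0.0115). That call was lost in DESeq2 (adjusted p = 0.30), without a low-count filter (0.091) and without inhibitor replicate 1 (0.22). Of 27 lysosome and autophagy genes, 21 were higher and none lower in edgeR (median 0.31), led by CTSS, cathepsin S (1.92). CD68, a lysosomal membrane protein, rose by 0.59. The summed level of the 9 leukocyte and erythroid markers was 149 and 150 CPM with DMSO and 227 and 226 after the inhibitor. Of these, 2 had enough counts to be tested, CD68 and CD14, and CD14 was low, so the sum is mostly CD68. The part of this sum in any result was not tested.

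Replication-dependent histone genes, whose RNAs lack a poly(A) tail and are made in S phase, had the lowest median of the lists with at least 5 tested members. Of 61 tested of 66, 57 were lower and none higher in edgeR, 54 of them at least 2-fold, with a median of -1.74. In the joint fit with NCI-H1944, where 36 of these genes could be tested, 33 were lower. Their summed level was 15307 and 14453 CPM with DMSO and 4779 and 5048 after the inhibitor. H3C2 (chr6:26031589-26032099) went from 414 and 369 to 82.4 and 79.0 CPM (-2.28 ± 0.05), and H1-5 fell by 2.09. The 4 not called were H2AC19, H4C14, H4C15 and H3C14, whose counts differed widely between replicates (H4C15: 122 and 3934, then 1452 and 252). Such genes have near-identical copies whose reads the counting could split, so single values are uncertain. Of 9 tested replication-independent histones, 5 were lower and 2 higher, with H2AX at -0.92.

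The promoters of CCNB2, which encodes cyclin B2 and fell by 0.81, and of H3C2 are shown because the CHR and the CCAAT box recur in genes of cell division and histone genes. They are chr15:59104896-59105145 (plus strand) and chr6:26032100-26032349 (minus strand).
CCNB2: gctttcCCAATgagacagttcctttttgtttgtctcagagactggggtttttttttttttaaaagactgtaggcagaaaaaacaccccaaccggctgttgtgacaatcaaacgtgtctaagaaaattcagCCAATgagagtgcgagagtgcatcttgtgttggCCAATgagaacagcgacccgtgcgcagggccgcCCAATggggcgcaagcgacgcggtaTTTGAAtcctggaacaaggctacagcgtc
H3C2: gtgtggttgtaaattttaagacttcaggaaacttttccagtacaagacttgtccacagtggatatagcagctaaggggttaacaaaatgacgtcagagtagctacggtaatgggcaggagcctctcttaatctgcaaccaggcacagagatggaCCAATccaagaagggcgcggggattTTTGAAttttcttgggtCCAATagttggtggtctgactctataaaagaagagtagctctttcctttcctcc
In CCNB2 the CHR match TTTGAA begins 29 bases before the start site, downstream of CCAAT matches at 244, 120, 87 and 54 bases. In H3C2 it begins 71 bases before it, between CCAAT matches at 96 and 54 bases. The CHR motif stood in 22 of 43 mitosis promoters (51.2%) and 17 of 56 histone promoters (30.4%). The shares were 13.6% of all promoters and 8.68% of those of tested protein-coding genes. In DNA replication and G1/S genes, a list that was lower too, it stood in 1 of 40 promoters (2.5%). The CCAAT box stood in 31 of 43 mitosis promoters (72.1%) and 48 of 56 histone promoters (85.7%), against 33.0% of all promoters. Cholesterol synthesis promoters held it in 15 of 18 (83.3%), and those of the integrated stress and unfolded protein responses in 17 of 22 (77.3%). Most genes of the latter list were higher, so a high CCAAT share was not particular to the lowered lists. Among coding genes at least 2-fold lower, a set that holds many histone genes, 19.1% held the CHR and 51.6% the CCAAT box.

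**Figure D4:**
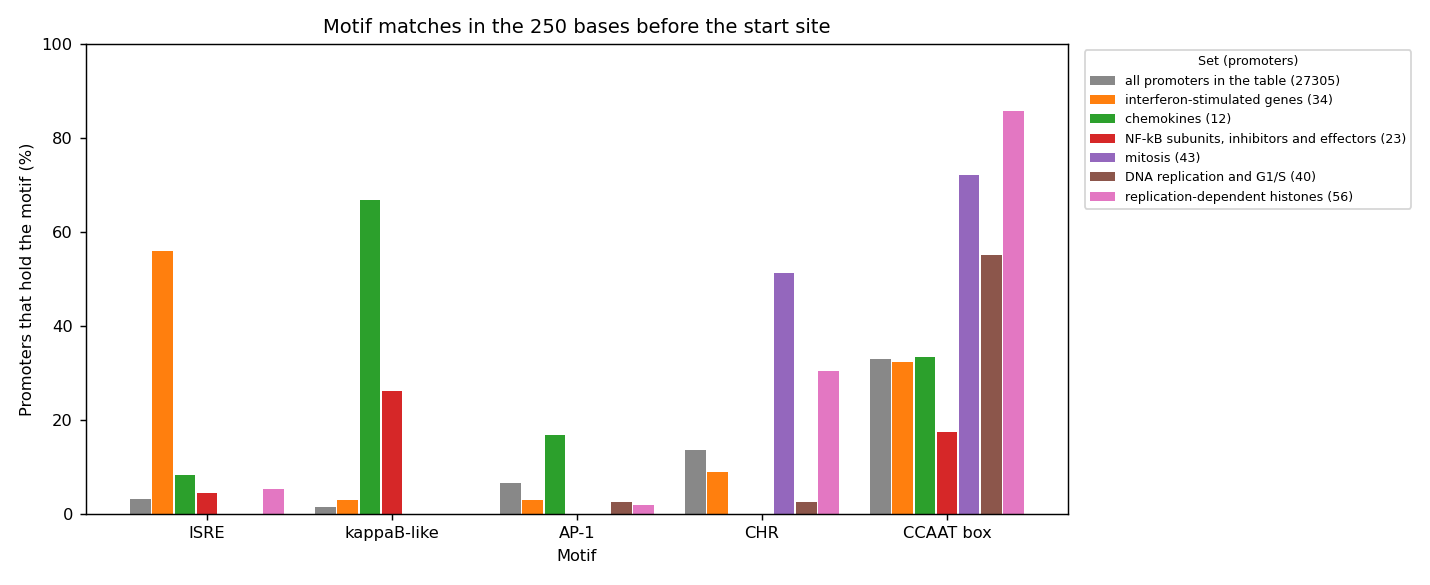
Share of promoters (vertical, percent) that hold each of 5 motifs on either strand in the 250 bases before the start site, for all 27305 promoters (grey) and 6 lists of tested genes (colours, with the number of promoters). Among the sets shown, the ISRE bar is highest for interferon-stimulated genes (55.9%) and the kappaB-like bar for chemokines (66.7%). The CHR bar is highest for mitosis (51.2%) and the CCAAT bar for histones (85.7%). The CCAAT share was also high for cholesterol synthesis genes (83.3%), a list not shown.

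Several metabolic programmes were lower. Of 25 targets of NRF2, the regulator of antioxidant genes, 21 were lower and 4 higher. AKR1B10, an aldo-keto reductase (chr7:134527567-134541412), had 3676 and 2968 counts and then 700 and 682. Its level fell from 192 and 175 to 50.8 and 50.3 CPM (-1.86 ± 0.06, adjusted p = 6.213e-13). ALDH3A1 (log2 change -1.29), GCLC, a subunit of the enzyme of the limiting step of glutathione synthesis (-0.90), and NQO1 (-0.68) fell as well. HMOX1, haem oxygenase, and the ferritin gene FTH1 went the other way, at 1.79 and 0.76. Cytosolic ribosomal protein genes were lower for 74 of 80, with a median of -0.39. RPL3 went from 1023 and 959 to 473 and 489 CPM (-1.04 ± 0.04) and RPL28, the higher one, rose by 0.14. Of 25 ribosome biogenesis genes, 14 were lower and 7 higher, with 3 higher in DESeq2. NPM1 and FBL, nucleolar proteins of ribosome assembly, fell by 0.74 and 0.62.

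Stress-response genes were mixed. Of 22 tested genes of the integrated stress and unfolded protein responses, 14 were higher and 4 lower. PPP1R15A, which restores translation, went from 23.5 and 25.1 to 97.9 and 96.3 CPM (2.0 ± 0.06), DDIT3 rose by 1.59 and the sensor gene ERN1 by 1.33. The serine and asparagine synthesis genes PSAT1, PHGDH and ASNS fell by 0.77, 0.52 and 0.45. Of 26 glycolysis and hypoxia genes, 10 were higher (38.5%) and 8 lower (30.8%), against 27.3% and 27.0% of all genes tested. The median was -0.018, and against a 1.5-fold minimum 5 were higher and 0 lower. VEGFA, the angiogenic factor, rose by 1.35 and NDRG1 by 1.32, while LDHA fell by 0.51. Of 24 cholesterol synthesis genes, 11 were lower (7 in DESeq2) and 4 higher, with INSIG1 at -0.52 and SQLE at 0.34.

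Genes of epithelial and mesenchymal state did not move one way. Of 13 tested keratin and squamous genes, 3 were higher and 5 lower: KRT17 rose by 2.24 and S100A9 by 3.23, while KRT7 fell by 0.70 and KRT80 by 1.03. Of 6 tested epithelial-state genes, 3 were higher and none lower in edgeR, among them DSP, desmoplakin (1.11), with CLDN3 and CLDN4 called on few counts or at an adjusted p near the threshold (0.023 and 0.035). Of 14 mesenchymal-state genes, 6 were higher and 2 lower, and VIM fell by 0.47. ZEB2, a repressor of epithelial genes, rose by 1.13, and ZEB1 was not called (log2 change -0.00). Of 15 YAP targets, 7 were higher and 4 lower, with NT5E at 0.84 and AXL at -0.60. Of the 6 fibroblast and endothelial markers with enough counts, none was higher and 3 were lower.

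Other genes had large changes outside these lists. The largest fitted rise among the coding genes considered was ARL2-SNX15, a readthrough of adjacent genes, with 0 and 0 counts and then 58 and 106, at least 72.3-fold higher with the same floor. It overlaps ARL2 and SNX15, so its counts depend on how overlapping reads were assigned. DRAXIN, an axon guidance protein, rose by 4.43 (7 and 2, then 79 and 72 counts), and ADORA2A, an adenosine receptor, by 4.08 (10 and 17, then 168 and 181). Besides AKR1B10, the largest falls included NHSL2 (39.3 and 33.2, then 10.4 and 12.2 CPM), MAP2K6, a kinase that activates p38 (13 and 14.2, then 3.92 and 4.87 CPM), and TMPRSS15, enteropeptidase (86.8 and 87.7, then 29.7 and 30.5 CPM). Their log2 changes were -1.69, -1.63 and -1.53. CAMK4, a calcium-dependent kinase, fell by 1.49.

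Among non-coding genes, NEAT1, the scaffold RNA of nuclear paraspeckles (chr11:65422774-65445540), went from 517 and 506 to 1399.7 and 1374 CPM (1.44 ± 0.03). MIR22HG, the host of a microRNA, rose from 7.77 and 8.79 to 39.6 and 35.9 CPM (2.19 ± 0.09), and MALAT1 by 0.53. SNHG29, a snoRNA host, fell by 0.72, and of 15 snoRNA host genes 7 were lower and 6 higher. Of 1544 long non-coding RNA genes tested, 251 were higher and 232 lower, that is 31.3% called, against 54.4% of all genes tested. Of 203 processed pseudogenes tested, 9 were higher and 43 lower (25.6% called), with a median of -0.28. Both classes were thus called less often than all genes, but no comparison at matched level was made. All listed long non-coding RNA genes together held 1.60% to 1.95% of a library's counts. All listed processed pseudogenes held 0.25% to 0.32%. Many processed pseudogenes are copies of ribosomal protein and other abundant genes, so reads may be shared with their parents. Of 393 tested ZNF genes, 83 were higher and 52 lower (median 0.04), both shares below those of all genes. DESeq2 called 25 higher and 23 lower.

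The response was set beside that of NCI-H1944, where 26.0% of 16738 genes tested were called. Of 12887 genes tested in both lines, 5166 (40.1%) differed in response by an interaction test in edgeR, and among 22 chosen genes 14 did. IL1B had 39 and 38 counts in NCI-H1944 with DMSO and 64 and 44 after the inhibitor (0.35 ± 0.31), so that the log2 response was 4.23 ± 0.24 larger in NCI-H647. CDKN1A was at 741 and 738 CPM in NCI-H1944 with DMSO and 786 and 806 after the inhibitor (0.11 ± 0.02), and its response was 2.17 ± 0.08 larger in NCI-H647. CSF2 was at 0 in all 4 NCI-H1944 libraries and INHBA at 0, 0, 2 and 0 counts, so neither difference could be tested. The response was smaller in NCI-H647 for RIGI (a difference of -1.44 ± 0.07 on the log2 scale), IFIT1 (-1.35 ± 0.07) and IFIH1 (-0.94 ± 0.07). For CCNB1, CDC20 and TTK the differences were -0.05 ± 0.06, -0.04 ± 0.07 and -0.04 ± 0.08 and not called. The lines also differ in library kit and sequencing depth, so line and kit cannot be told apart.

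**Figure D5:**
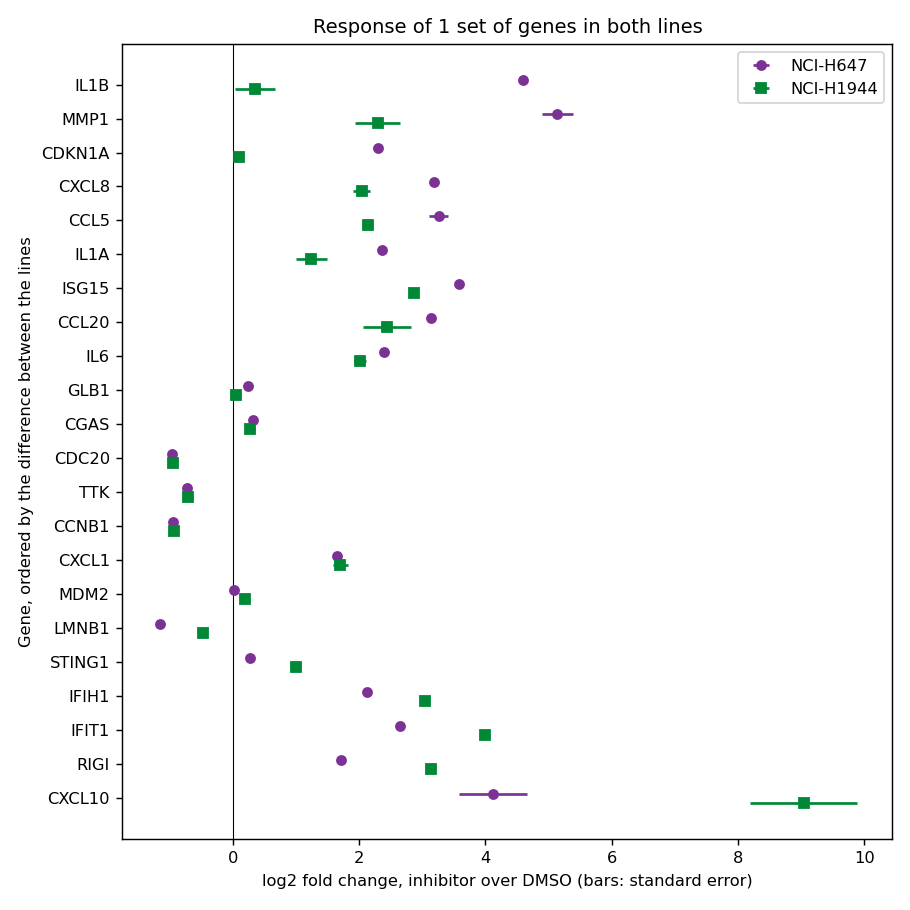
Log2 fold change (inhibitor over DMSO, horizontal; bars are standard errors) of 22 genes tested in both NCI-H647 (purple circles) and NCI-H1944 (green squares), ordered by the difference. IL1B, MMP1 and CDKN1A lie farther right in NCI-H647, and RIGI, IFIT1 and IFIH1 in NCI-H1944; CXCL10, at 0 counts in both NCI-H1944 DMSO libraries, has a fitted value there that depends on the prior count.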

How the data were processed

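The analysis began from the deposited table of raw read counts per gene of NCI-H647, which the authors made on GRCh38; the submitters' processing notes name trimmers (cutadapt, Trimmomatic, Trim Galore), aligners (HISAT2, STAR) and counters (StringTie, featureCounts), without saying which made this table. The annotation release and strand setting are not stated, so antisense and overlapping genes are uncertain. The table lists no mitochondrially encoded gene. Genes were kept by edgeR's filter (minimum count 10, minimum total 15), scaled by TMM and tested with edgeR 4.0.16 (glmQLFit, glmQLFTest; limma 3.58.1, R 4.3.3), with the 4 NCI-H647 libraries and no covariate. Changes are log2 of inhibitor over DMSO with SE; SE and n are over 2 libraries a group. The difference between the lines was an interaction term in a joint fit of all 8 libraries. Gene lists, markers and members were chosen with earlier results of these data known. Named genes are the 12 largest rises and falls among coding genes whose mean log2 CPM was 1 or more (histone and ribosomal protein copies left out), up to 4 members of each list and 4 non-coding genes in each direction by smallest adjusted p, and 30 genes fixed whatever their outcome, some of which are not reported here; other members are named as examples after their values were seen. Promoters came from RefSeq (GRCh38.p14), matched by symbol. Alternatives were DESeq2 1.42.0, RLE and upper-quartile scaling, no low-count filter, a minimum change of 1.5-fold, thinning to the shallowest library, protein-coding genes only, leaving out each library, a replicate block and the joint fit.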

Additional observations from a re-analysis of the deposited data

Results flagged for a closer look

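Of 22 chosen genes tested in both lines, 14 differed in response by the interaction test in edgeR, each at an adjusted p under 0.05. Over all 12887 genes tested in both NCI-H647 and NCI-H1944, 5166 (40.1%) differed. In log2 units, NCI-H647 minus NCI-H1944, the response was larger in NCI-H647 for IL1B (4.23), MMP1 (2.84), CDKN1A (2.17), CXCL8 (1.12), CCL5 (1.10), IL1A (1.09), ISG15 (0.70) and IL6 (0.36). It was lower for RIGI (-1.44), IFIT1 (-1.35), IFIH1 (-0.94), STING1 (-0.76), LMNB1 (-0.70) and MDM2 (-0.20). LMNB1 fell in both lines, by 1.15 and 0.47. MDM2 stood at 0.02 in NCI-H647, where it was not called, and rose by 0.20 in NCI-H1944; its difference was not called without NCI-H647 DMSO replicate 1 (-0.16, adjusted p = 0.073) or inhibitor replicate 1 (-0.15, adjusted p = 0.066). Library kit and line cannot be told apart.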

How the results depend on the processing

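The labels' replicate numbers do not state a pairing, and the deviations of same-numbered libraries correlated at 0.00257 across genes. With a replicate block, 4236 genes were higher and 4198 lower, and no count for the lists named below changed by over 1.5 times; between the lines, 5215 genes differed with the block. DESeq2 called 2131 genes higher and 2581 lower, and a minimum change of 1.5-fold 792 and 464; the cause of the DESeq2 counts was not tested. Leaving out 1 library at a time gave 3314 to 3677 higher and 3576 to 3718 lower genes, and 4185 to 4419 genes that differed between the lines. The p53 targets were 9 higher and 1 lower at the 1.5-fold minimum, 3 lower in DESeq2, and 2 to 5 lower without single libraries. At the 1.5-fold minimum 39 of the counts of list members called in 1 direction fell by over 1.5 times and 7 did not. Mitosis genes lower numbered 27, and replication genes lower 23, at the 1.5-fold minimum. In the joint fit, 33 histone genes were lower, of 36 that could be tested there. Interferon-stimulated genes higher stayed at 44 or 45 and chemokines higher at 11 or 12 without single libraries. Medians of 3 lists, each farther from 0 than the spread between replicates, changed sign. Epithelial state was -0.060 in DESeq2 and -0.15 after thinning (0.18 as reported). Fibroblast and endothelial markers were at 0.47 in the joint fit (-0.32 as reported). Only 3 of these markers could be tested there, against 6 in the main fit, so the 2 medians cover different sets of genes. Keratins were at -0.12 without inhibitor replicate 2, ranging up to 0.28 without others. Some medians nearer 0 than the spread between replicates also changed sign. Epithelial lung line markers were at 0.13 without the low-count filter (-0.040 in the main fit). Glycolysis and hypoxia genes were at 0.050 without inhibitor replicate 2 (-0.018 in the main fit). The cause of the sign changes was not tested. Scaling by RLE or upper-quartile factors changed none of these counts by over 1.5 times. With 2 libraries a group, low genes such as the interferons could not be compared.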
